A study of Oryza sativa Indica Group with 12 samples.

Results

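The vacuolar Fe transporters (VITs) of rice were followed across the 4 groups of a root microarray experiment, together with the gene that lies beside one of them. The set holds 5 genes read by 9 probe sets, of 57258 probe sets tested and 17905 genes listed for them. The members are OsVIT2 (LOC_Os09g23300, on chromosome 9, with 2 probe sets), the VIT-like genes LOC_Os04g45520 (1 probe set) and LOC_Os04g59020 (4 probe sets), OsVIT1 (1 probe set) and LOC_Os04g45510 (1 probe set), the last 4 on chromosome 4. They were chosen by name and locus, and no threshold on a value was set here. The study's lists of changed genes, through which some were matched, did use thresholds. The probe sets of LOC_Os04g45520 and LOC_Os04g45510, 1 of LOC_Os04g59020 and 1 of OsVIT2 were matched through the study's lists of genes changed on these arrays. The other 3 of LOC_Os04g59020 share its gene ID. The direction of all these probe sets in BR-IRGA 409 is thus not independent evidence. Being listed as raised in BR-IRGA 409 also favours low values in the control arrays of that cultivar. Later comparisons that use those control arrays, between the cultivars or between their responses, are therefore not free of this selection. The shares of all probe sets given beside such counts are not adjusted for it. OsVIT1 and the other OsVIT2 probe set were matched by symbol and gene ID, without those lists. That OsVIT2 probe set reads the same gene as the listed one on the same arrays (r = 0.977 between them). Its direction in BR-IRGA 409 is therefore not independent evidence either. These OsVIT2 probe sets are called the list-matched and the ID-matched one below.

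VIT proteins sit in the tonoplast, the membrane of the vacuole, and move ferrous Fe out of the cytosol into the vacuole, where the metal is stored away from the reactions that make oxygen radicals. In rice, OsVIT1 and OsVIT2 have been described as tonoplast carriers of Fe, Zn and Mn, known for their part in Fe storage in leaves. VIT-like proteins share the VIT domain, and some of those of Arabidopsis have been described as Fe carriers of the vacuole as well. LOC_Os04g45510 encodes a protein of unknown function.

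Roots were taken from the indica cultivars BR-IRGA 409, characterised earlier as susceptible to Fe toxicity, and EPAGRI 108, characterised as tolerant. By the labels treatment began 20 days after germination, with plants grown for 10 days each in vermiculite and in hydroponics once they had left the germination dishes. They received 500 mg/L Fe (excess Fe) or 6.5 mg/L Fe (control) for 3 days, both as FeSO4. Each of the 4 groups, BR-IRGA 409 in excess Fe, BR-IRGA 409 in control, EPAGRI 108 in excess Fe and EPAGRI 108 in control, has 3 arrays labelled as biological replicates, and how many plants were pooled is not given in the sources used here. Values are signals on the log2 scale as deposited, so that a difference of 1 is a doubling, and a level is compared only within a probe set.

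A difference was called when limma's moderated test gave a Benjamini-Hochberg adjusted p under 0.05 over all 57258 probe sets and the change was at least 3-fold. The brightest of 23 control probe sets that match nothing in rice read between 4.51 and 5.01 over the arrays. It is called the non-target level below, and a group lying wholly under it has only a bound. All 5 root marker genes with a probe set were above it on every array, among them NIP2-1, the silicon influx channel LSI1, which read between 13.35 and 13.78. The summed linear signal of the 5 root markers was 18469 to 21155 in BR-IRGA 409 excess Fe, 22765 to 28116 in BR-IRGA 409 control, 20328 to 22190 in EPAGRI 108 excess Fe and 20876 to 26158 in EPAGRI 108 control. One of the 5 is IRT1, an Fe uptake gene that itself changed with Fe. Its mean was 5.96 in BR-IRGA 409 excess Fe and 11.66 in control, and 7.23 and 10.09 in EPAGRI 108. The root sums are therefore not free of the response to Fe. Of 4 leaf marker genes 3 were above the non-target level as well, and the other, for a small subunit of Rubisco, was under it on every array. The summed linear signal of the 4 leaf markers was 3361 to 4514 in BR-IRGA 409 excess Fe, 3927 to 7736 in BR-IRGA 409 control, 1714 to 2222 in EPAGRI 108 excess Fe and 1765 to 2889 in EPAGRI 108 control, and the part of the marker differences in the results below was not tested. Of the 12 arrays, EPAGRI 108 control array 1 lay farthest from its group mean, with 577 probe sets more than 2-fold away, against 21 to 175 on the other arrays. RNA came from whole roots, so that fewer cells of a type and less RNA per cell cannot be told apart.

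Excess Fe raised 4 of the 5 genes in roots of BR-IRGA 409, which had the lowest level of these genes in control. OsVIT2, both VIT-like genes and LOC_Os04g45510 were 6.86-fold to 79.3-fold higher in excess Fe than in control in this cultivar, with a bound of at least 77.7-fold for LOC_Os04g45510, and 8 of the 9 probe sets were called higher, against 1.1% of all probe sets. None was called lower, against 0.25% of all probe sets. By the array labels, the same 4 genes were already high in EPAGRI 108 control. In that cultivar 2 probe sets were called higher with excess Fe (background 0.283%) and none lower (background 0.0227%). OsVIT1 had a lower mean with excess Fe in both cultivars and was called in neither.

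**Figure D1:**
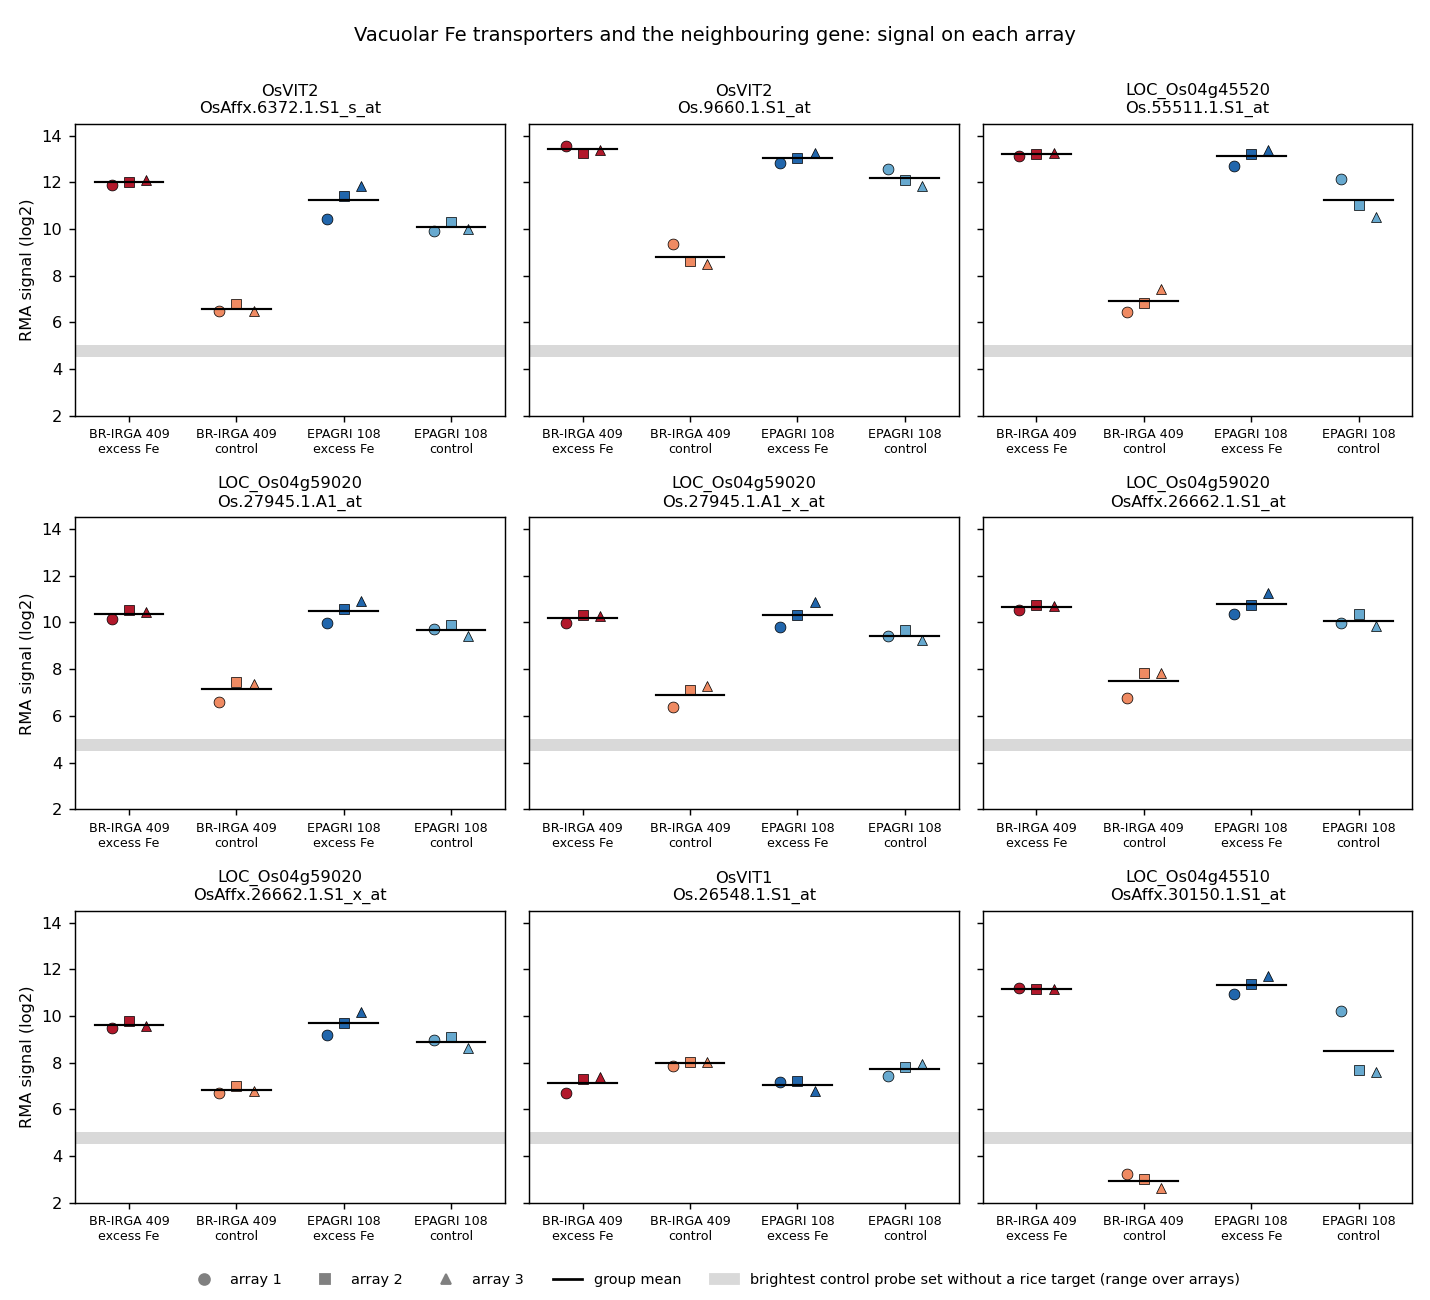
Signal (log2) of the 9 probe sets on each of the 12 arrays, with BR-IRGA 409 excess Fe, BR-IRGA 409 control, EPAGRI 108 excess Fe and EPAGRI 108 control from left to right in each panel. Symbols are arrays 1, 2 and 3, bars are group means, and the grey band is the range of the non-target level over arrays (4.51 to 5.01). In 8 panels the 3 BR-IRGA 409 control arrays lie under the other 9 arrays.

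OsVIT2, the vacuolar Fe carrier on chromosome 9, was read by 2 probe sets. On the list-matched one, whose suffix s marks probes that can match several transcripts, BR-IRGA 409 had 11.91, 12.03 and 12.08 in excess Fe, against 6.50, 6.77 and 6.51 in control. EPAGRI 108 had 10.42, 11.43 and 11.86 in excess Fe, against 9.92, 10.30 and 10.01 in control. The BR-IRGA 409 control arrays were the low ones, and the groups did not overlap in either cultivar, although in EPAGRI 108 the nearest arrays were only 0.13 apart.

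The mean of this OsVIT2 probe set was thus 12.01 ± 0.091 in BR-IRGA 409 excess Fe and 6.59 ± 0.16 in BR-IRGA 409 control (SD, n = 3 each), a difference of 5.41 (SE 0.27), or 42.6-fold, with an adjusted p of 5.4e-07. By the labels on the arrays the tolerant cultivar also had the higher mean in excess Fe, which is opposite to the direction that the study's own tables give for the VIT-like gene, its neighbour and a ferrous Fe transporter described further on. By the study's account, RT-qPCR bore out the arrays for most of the genes tested. It lacked the fall for some genes placed on opposite sides in the cultivars. The study offers low control expression as a possible reason. Those measurements were not analysed here. The array files alone do not settle which direction is right, so that signed values for EPAGRI 108 below follow the array labels, and the results that do not need them are given separately. The OsVIT2 mean was 11.23 ± 0.74 in EPAGRI 108 excess Fe and 10.07 ± 0.20 in EPAGRI 108 control, a difference of 1.16 (SE 0.27, adjusted p = 0.0663) that was not called.

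The ID-matched probe set of OsVIT2 gave the same order of groups. BR-IRGA 409 had 13.56, 13.27 and 13.39 in excess Fe, against 9.37, 8.62 and 8.48 in control. EPAGRI 108 had 12.82, 13.03 and 13.27 in excess Fe, against 12.57, 12.09 and 11.85 in control. The groups again did not overlap in either cultivar, and excess Fe array 2 of BR-IRGA 409 and excess Fe array 3 of EPAGRI 108 read nearly the same. The response was 4.59 (SE 0.23), or 24.0-fold, in BR-IRGA 409 (adjusted p = 5.6e-07), and 0.87 (SE 0.23, adjusted p = 0.107) in EPAGRI 108, where it was not called.

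LOC_Os04g45520, the VIT-like gene with 1 probe set, had 13.13, 13.23 and 13.27 in BR-IRGA 409 excess Fe, against 6.43, 6.85 and 7.41 in BR-IRGA 409 control. In EPAGRI 108 it had 12.71, 13.23 and 13.40 in excess Fe, against 12.15, 11.01 and 10.51 in control. The 6 excess Fe arrays lay close together whatever the cultivar, while the control arrays of the cultivars were far apart and EPAGRI 108 control array 1 was the highest of the control arrays. Excess Fe raised LOC_Os04g45520 by 6.31 (SE 0.35), or 79.3-fold, in BR-IRGA 409 (adjusted p = 1.4e-06). It was raised by 1.89 (SE 0.35), or 3.70-fold, in EPAGRI 108 (adjusted p = 0.0392), a call that did not hold in every fit.

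LOC_Os04g45510, the gene of unknown function beside it, had the widest range of the 9 probe sets. It read 11.20, 11.17 and 11.14 in BR-IRGA 409 excess Fe, against 3.21, 3.0 and 2.61 in BR-IRGA 409 control, where every array was under the non-target level. In EPAGRI 108 it read 10.94, 11.35 and 11.70 in excess Fe, against 10.20, 7.69 and 7.59 in control. The gene was therefore above background in every EPAGRI 108 control array and in no BR-IRGA 409 control array, and EPAGRI 108 control array 1 stood far above the other 2 of its group. The rise with excess Fe was at least 77.7-fold in BR-IRGA 409 (adjusted p = 3.8e-06) and 2.84 (SE 0.52), or 7.15-fold, in EPAGRI 108 (adjusted p = 0.0392).

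Both EPAGRI 108 calls, of LOC_Os04g45520 and LOC_Os04g45510, were close to the threshold, and 10 of 12 fits that left out 1 array ended them (adjusted p up to 0.209). In each of those 10 fits none of all 57258 probe sets was called in EPAGRI 108, so that the loss was not particular to these genes. With arrays of the same number within a cultivar taken as a block, the adjusted p was 0.0712 for both, and without both EPAGRI 108 arrays numbered 1 the fitted difference was 2.55 for LOC_Os04g45520 (adjusted p = 0.00020) and 3.89 for LOC_Os04g45510 (adjusted p = 2.5e-06).

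LOC_Os04g59020, the other VIT-like gene, had 4 probe sets, whose means differed by 2.78 to 3.28 between excess Fe and control in BR-IRGA 409 (6.86-fold to 9.71-fold, adjusted p from 1.4e-05 to 4.9e-05). On the brightest of them BR-IRGA 409 had 10.55, 10.74 and 10.69 in excess Fe, against 6.78, 7.84 and 7.84 in control. EPAGRI 108 had 10.37, 10.76 and 11.27 in excess Fe, against 9.96, 10.36 and 9.83 in control. In BR-IRGA 409 the groups were well separated, and in EPAGRI 108 the lowest excess Fe array lay only 0.0051 above the highest control array. The 4 probe sets gave EPAGRI 108 differences of 0.75 to 0.89 (adjusted p from 0.105 to 0.321), none of them called. As these probe sets share a target, they are 1 gene read several times, and those with the suffix x can match further transcripts.

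OsVIT1, the other named vacuolar carrier, was the exception among the members. It had 6.71, 7.31 and 7.39 in BR-IRGA 409 excess Fe, against 7.86, 8.03 and 8.02 in BR-IRGA 409 control. It had 7.17, 7.21 and 6.77 in EPAGRI 108 excess Fe, against 7.44, 7.83 and 7.93 in EPAGRI 108 control. In both cultivars all 3 excess Fe arrays were under all 3 control arrays, a separation also found for 13.1% of all probe sets in BR-IRGA 409 and for 7.07% in EPAGRI 108. The difference was -0.83 (SE 0.19), or 1.78-fold lower, in BR-IRGA 409 (adjusted p = 0.0184), which passed the adjusted p but not the 3-fold minimum, as 3.41% of all probe sets were lower at that adjusted p with no fold minimum. In EPAGRI 108 the difference was -0.68 (SE 0.19, adjusted p = 0.128).

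The median difference between excess Fe and control over the 9 probe sets was 3.28 in BR-IRGA 409, where the median of all probe sets was -0.035, and 0.87 in EPAGRI 108, where it was -0.015. Medians over the 9 probe sets, here and below, weigh LOC_Os04g59020 most, as it has 4 of them. The BR-IRGA 409 median is the value of 1 of its probe sets. In BR-IRGA 409 all 3 excess Fe arrays were above all 3 control arrays for 8 of the 9 probe sets, as they were for 11.1% of all probe sets. In EPAGRI 108 the same 8 were separated in this way, with a background of 6.34%.

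**Figure D2:**
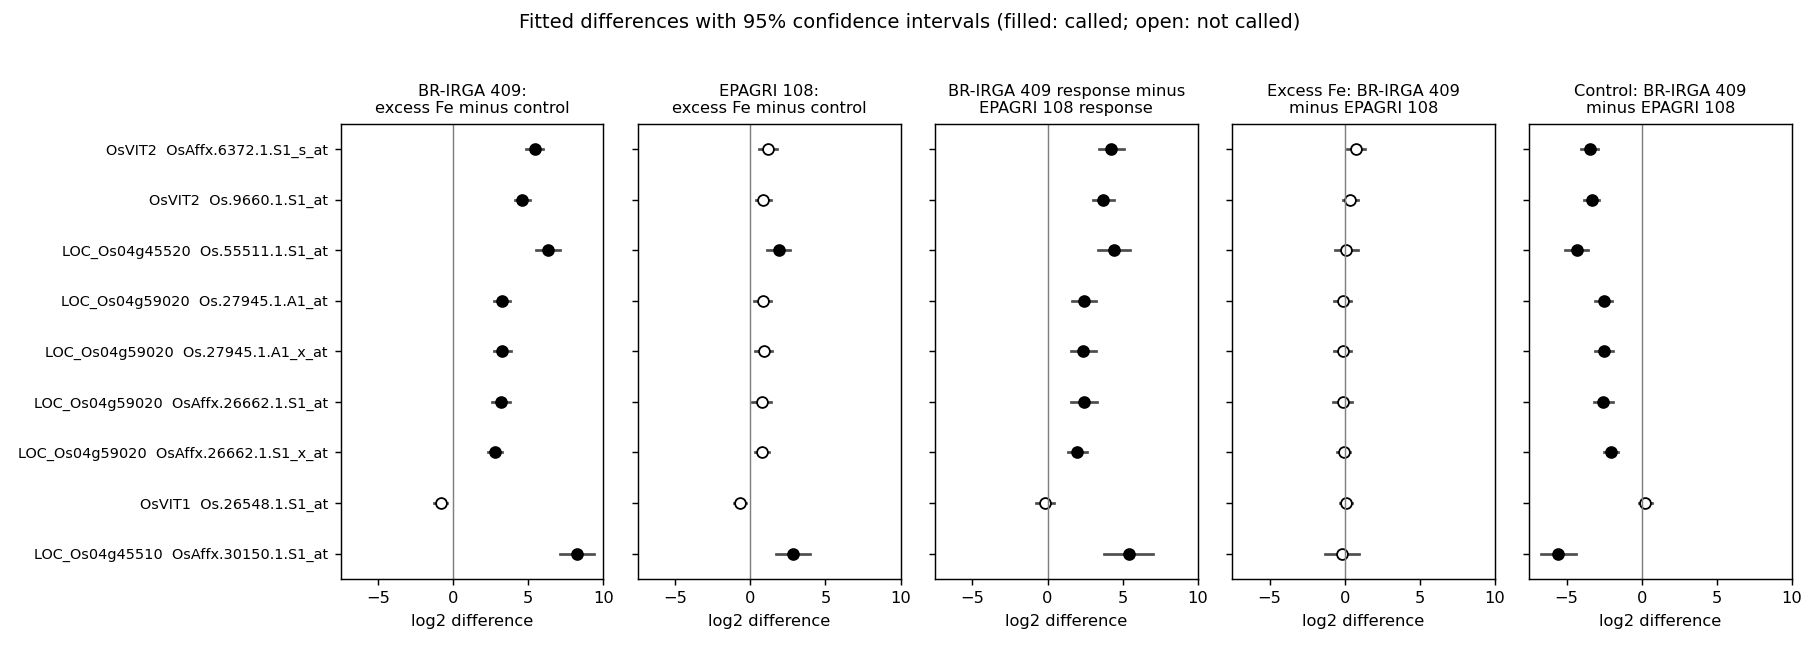
Fitted log2 differences with 95% confidence intervals for the 9 probe sets, 1 comparison per panel. Filled points were called and open points were not. The points for LOC_Os04g45510 that involve BR-IRGA 409 control are fitted values and not bounds, since that group lay under the non-target level.

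The responses of the cultivars were compared directly through the interaction, the BR-IRGA 409 response minus the EPAGRI 108 response, which was called for 8 of the 9 probe sets (background 0.0856% in this direction and 0.0541% in the other). It was 4.25 (SE 0.38, adjusted p = 0.00036) and 3.72 (SE 0.33, adjusted p = 0.00031) for the OsVIT2 probe sets, and 4.42 (SE 0.50, adjusted p = 0.0019) for LOC_Os04g45520. LOC_Os04g45510 responded at least 10.9 times more in BR-IRGA 409 (adjusted p = 0.0094). The response of LOC_Os04g59020 was larger in BR-IRGA 409 by 1.98 to 2.42 over its probe sets (adjusted p from 0.0176 to 0.0335). For OsVIT1 the interaction was -0.15, with a 95% confidence interval from -0.74 to 0.44, and was not called. With the EPAGRI 108 sign turned, 8 probe sets were called as well. In that setting 1299 of all 57258 probe sets were called in this direction and 539 in the other. As these 8 had positive differences in both cultivars, turning the sign could only enlarge their fitted interaction, so that this count is no further test. The interaction of LOC_Os04g59020 on its brightest probe set was no longer called in 7 of 12 fits that left out 1 array (adjusted p from 0.0186 to 0.118 over the 12) or with 16 added to the linear values (adjusted p = 0.0931), and that of LOC_Os04g45510 was lost with 16 added (adjusted p = 0.158).

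By the array labels, the called gaps between the cultivars lay in the control condition. This split between conditions rests on the EPAGRI 108 treatment labels, and comparisons across cultivar and condition are given further on. In control, 8 of the 9 probe sets were called lower in BR-IRGA 409 than in EPAGRI 108, against 0.604% of all probe sets, and none higher, against 0.51%, with a member median of -2.56 and an overall median of 0.0060. OsVIT2 was 11.2-fold and 10.2-fold lower in BR-IRGA 409 on its probe sets (differences of -3.48, SE 0.27, and -3.35, SE 0.23, adjusted p = 3.7e-06 and 1.2e-06). LOC_Os04g45520 was 20.1-fold lower in BR-IRGA 409 (difference -4.33, SE 0.35, adjusted p = 5.8e-06), and LOC_Os04g59020 was 4.18-fold to 5.91-fold lower (adjusted p from 4.7e-05 to 9.8e-05). In BR-IRGA 409 control LOC_Os04g45510 was lower by at least 12.1-fold (adjusted p = 2.2e-05). OsVIT1 differed by 0.24 (95% confidence interval -0.18 to 0.65) and its groups overlapped.

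In excess Fe no member probe set was called between the cultivars, whereas 0.596% of all probe sets were called higher and 0.59% lower in BR-IRGA 409. The differences ran from -0.16 to 0.77. The interval of the difference was -0.68 to 0.87 for LOC_Os04g45520, -0.75 to 0.48 for LOC_Os04g59020 on its brightest probe set, -0.33 to 0.50 for OsVIT1 and -1.29 to 0.98 for LOC_Os04g45510. OsVIT2 was the only member whose cultivars did not overlap in excess Fe, by gaps of 0.048 and 0.0030, and all 3 BR-IRGA 409 arrays were above all 3 EPAGRI 108 arrays in this condition for 8.03% of all probe sets. For OsVIT2 the mean of BR-IRGA 409 was higher by 0.77 (95% confidence interval 0.18 to 1.36, adjusted p = 0.215) on the list-matched probe set and by 0.37 (-0.14 to 0.87, adjusted p = 0.668) on the ID-matched one. The control gap, the excess Fe gap, the responses and the interaction are built from the same 12 arrays, and the interaction is the difference of the responses as well as of the gaps, so that these results are not separate observations.

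A result that needs no EPAGRI 108 treatment label is that all 6 EPAGRI 108 arrays lay above all 3 BR-IRGA 409 control arrays for 8 of the 9 probe sets, as for 4.43% of all probe sets. The distance between the lowest EPAGRI 108 array and the highest BR-IRGA 409 control array was 4.38 for LOC_Os04g45510, 3.10 for LOC_Os04g45520, 3.15 and 2.48 for OsVIT2 and 1.64 to 1.99 for LOC_Os04g59020. All 8 were thus separated by more than 2-fold, as were 0.59% of all probe sets. These shares are not adjusted for the matching of some members through lists of genes changed in BR-IRGA 409. OsVIT1 was not separated, its lowest EPAGRI 108 array being 1.26 under the highest BR-IRGA 409 control array.

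The order of the 4 group means was BR-IRGA 409 excess Fe, EPAGRI 108 excess Fe, EPAGRI 108 control and BR-IRGA 409 control, high to low, for OsVIT2 and LOC_Os04g45520. For LOC_Os04g59020 and LOC_Os04g45510 the excess Fe groups changed places. The last step, between EPAGRI 108 control and BR-IRGA 409 control, was called for these 4 genes, and the first step, between the excess Fe groups, for none of them. The middle step was called for LOC_Os04g45520 and LOC_Os04g45510 and not for OsVIT2 and LOC_Os04g59020. Across cultivar and condition, BR-IRGA 409 excess Fe was called higher than EPAGRI 108 control for 3 probe sets, the list-matched one of OsVIT2 and those of LOC_Os04g45520 and LOC_Os04g45510 (background 1.24%), and lower for none (background 0.665%). EPAGRI 108 excess Fe was called higher than BR-IRGA 409 control for 8 of the 9 probe sets (background 1.35%) and lower for none (background 0.688%). OsVIT1 had the reverse order, with both control groups above both excess Fe groups, and no neighbouring pair of its groups was called.

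**Figure D3:**
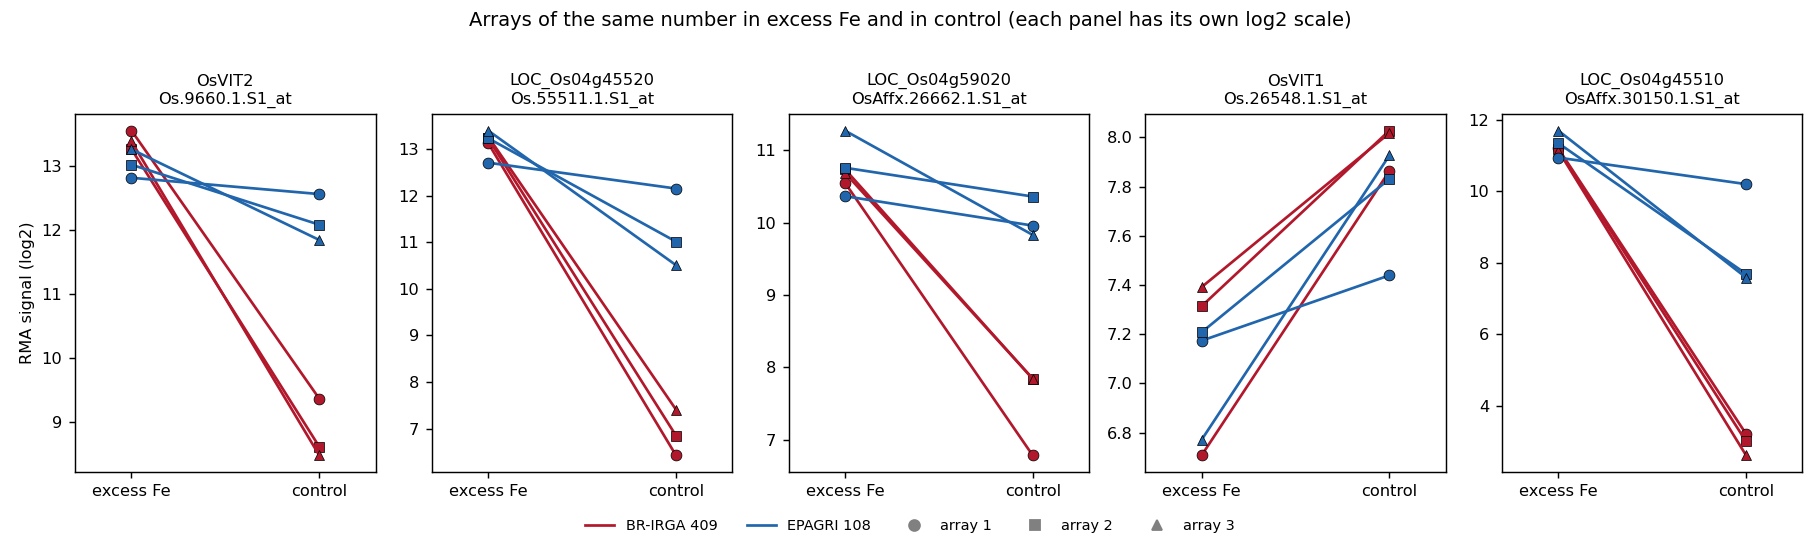
Signal (log2) of the brightest probe set of each gene in excess Fe (left) and control (right), with a line joining arrays of the same number in BR-IRGA 409 (red) and EPAGRI 108 (blue); each panel has its own scale. The EPAGRI 108 line of array 1 is the flattest in 4 panels, and in the LOC_Os04g59020 panel the lines of arrays 1 and 2 have nearly the same slope (0.41 and 0.40).

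Among arrays of the same number, the EPAGRI 108 difference between excess Fe and control varied more than the BR-IRGA 409 one for LOC_Os04g45510 and LOC_Os04g45520. For LOC_Os04g45510 it was 0.74, 3.66 and 4.11 for arrays 1, 2 and 3 of EPAGRI 108, and 7.99, 8.17 and 8.53 for those of BR-IRGA 409. For LOC_Os04g45520 it was 0.56, 2.22 and 2.89 in EPAGRI 108 and 6.70, 6.37 and 5.86 in BR-IRGA 409. The small difference of EPAGRI 108 arrays 1 went with a high control array and a low excess Fe array for both genes. OsVIT2 on its ID-matched probe set had differences of 0.25, 0.94 and 1.42 in EPAGRI 108, and OsVIT1 had -0.27, -0.62 and -1.16, so that these genes too had their smallest difference in arrays 1. Every difference of the 4 raised genes was positive in all 3 pairs of both cultivars. Any pairing would give this, since their excess Fe arrays all lay above their control arrays in each cultivar.

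The gene neighbourhood was examined next, because LOC_Os04g45520 and LOC_Os04g45510 lie side by side. In the RefSeq gene order, 28 genes other than the members, within 5 genes of a member on either side, had a probe set. Excess Fe raised 1 of them in BR-IRGA 409 (background 1.1%) and none was called lower (background 0.25%). A single call among 28 genes is too little to set against that share. None was called in EPAGRI 108, in the interaction or between the cultivars. Their median response was 0.15 in BR-IRGA 409 and 0.042 in EPAGRI 108. The called gene, LOC4336524, lies 3 genes from LOC_Os04g45520 and 2 from LOC_Os04g45510, with an uncalled gene, LOC4336525 (0.41, adjusted p = 0.133), between it and the pair.

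LOC4336524 read 6.05, 6.39 and 6.18 in BR-IRGA 409 excess Fe, against 4.45, 4.69 and 4.37 in BR-IRGA 409 control. It read 5.81, 6.14 and 6.26 in EPAGRI 108 excess Fe, against 5.78, 4.90 and 4.74 in EPAGRI 108 control. All its BR-IRGA 409 control arrays were under the non-target level, so that its rise there was at least 2.49-fold (fitted difference 1.70, SE 0.23, adjusted p = 0.00076). This bound lies under the 3-fold minimum, and the call rests on the fitted difference. Its EPAGRI 108 control array 1 stood above the other 2, as for LOC_Os04g45510. The genes directly next to OsVIT2 and OsVIT1 with a probe set were not called.

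**Figure D4:**
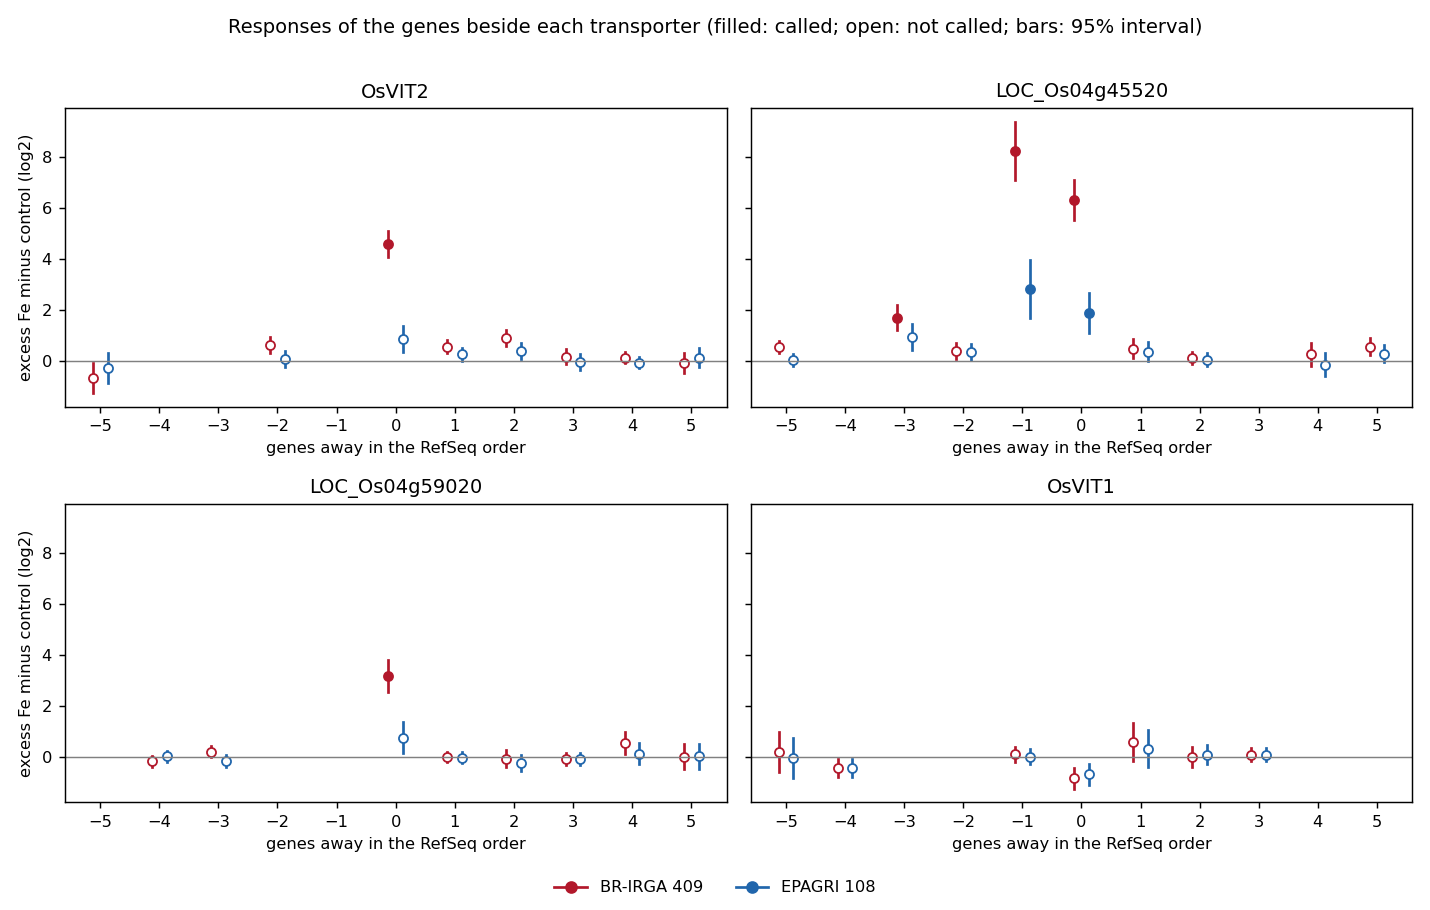
Fitted log2 difference between excess Fe and control, with 95% confidence intervals, for each transporter (position 0) and the genes up to 5 places away in the RefSeq order, in BR-IRGA 409 (red) and EPAGRI 108 (blue). Filled points were called. LOC_Os04g45510 is at position -1 beside LOC_Os04g45520, and LOC4336524 at position -3 is the 1 other called neighbour.

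Genes of Fe storage moved in the same direction as the raised transporters. Both ferritins, the protein cages that hold Fe in plastids, were called higher in BR-IRGA 409 (background 1.1%). FER1 was higher by 2.00 (SE 0.16, adjusted p = 1.7e-05) and FER2 by 2.12 (SE 0.17, adjusted p = 2.2e-05). In EPAGRI 108 they differed by 0.82 and 0.95 (adjusted p = 0.0392 for both), under the 3-fold minimum. FER1 read 10.62, 10.84 and 10.61 in BR-IRGA 409 excess Fe, against 8.61, 8.94 and 8.54 in BR-IRGA 409 control. These genes have near-identical sequences, so that each may be read by the other's probes, and they were matched through the study's lists of changed genes.

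Of 15 other carriers of metals at the vacuole that were looked for, 6 had a probe set, and none of the 6 was called in any of the 5 comparisons. Their median response was 0.12 in BR-IRGA 409 and -0.080 in EPAGRI 108. The brightest were CAX3, a cation and proton exchanger, with 0.27 in BR-IRGA 409 (SE 0.10, adjusted p = 0.154), and MTP1, a Zn carrier, with 0.20 (SE 0.13, adjusted p = 0.477). Whether the array reads VIT family genes beyond the members was not tested. The platform annotation gave no gene for 34727 of the 57258 probe sets.

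Genes that bring Fe into the root ran the other way. Of 9 genes of Fe uptake and movement with a probe set, 6 fell with excess Fe in the susceptible cultivar (background 0.25%). In the tolerant one 1 fell (background 0.0227%), and none was called higher in either (background 1.1% and 0.283%). Some of these genes were matched through the study's lists of changed genes, and the shares are not adjusted for this. In control 4 of the 9 were called higher in BR-IRGA 409 than in EPAGRI 108 (background 0.51%). In excess Fe none was called higher (background 0.596%) or lower (background 0.59%). YSL15, which takes up Fe bound to phytosiderophore, read 5.55, 5.59 and 5.55 in BR-IRGA 409 excess Fe, against 12.99, 12.78 and 12.89 in BR-IRGA 409 control. It read 6.43, 5.01 and 5.16 in EPAGRI 108 excess Fe, against 6.57, 6.48 and 6.35 in EPAGRI 108 control. The BR-IRGA 409 control arrays were thus the high ones here, where they were the low ones for OsVIT2 and the VIT-like genes.

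The YSL15 difference in BR-IRGA 409 was -7.32 (SE 0.27, adjusted p = 3.4e-08). IRT1, the ferrous Fe transporter of the root surface, was lower by 5.70 in BR-IRGA 409 (adjusted p = 0.00017), and its difference of -2.86 was the call in EPAGRI 108 (adjusted p = 0.0479), where excess Fe array 1 read 9.24 and arrays 2 and 3 read 6.46 and 5.99. That call was lost with same-numbered arrays as a block within each cultivar, where no probe set was called in EPAGRI 108, and its direction is among those that the array labels and the study's tables give oppositely. NRAMP1, a metal transporter of the plasma membrane, YSL2, a carrier of Fe bound to nicotianamine, and YSL16 differed by -4.21, -4.23 and -1.95 in BR-IRGA 409 (adjusted p = 1.6e-08, 1.6e-08 and 1.6e-05). TOM1, which exports phytosiderophore, was at least 4.55-fold lower there (adjusted p = 3.3e-07). NRAMP5 (-1.46, adjusted p = 7.9e-05) stayed under the 3-fold minimum and IRT2 had 0.46 (adjusted p = 0.189). YSL2 and TOM1 were matched through the study's lists of changed genes.

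Of 3 genes of Fe sensing with a probe set, 2 were called lower in BR-IRGA 409 (background 0.25%). IMA1, a small peptide that promotes the Fe deficiency response, was at least 41.1-fold lower with excess Fe (adjusted p = 1.8e-09), and all its EPAGRI 108 arrays lay under the non-target level. The bHLH gene that the annotation lists under both IRO3 and IRO2 was lower by 2.23 (SE 0.15, adjusted p = 5e-06), and IDEF1, a regulator of the Fe deficiency response, had 0.16 (adjusted p = 0.504). Neither IMA1 nor the IRO3/IRO2 gene was called in EPAGRI 108. IMA1 was matched through the study's lists of changed genes, so that its fall in BR-IRGA 409 is not independent evidence.

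**Figure D5:**
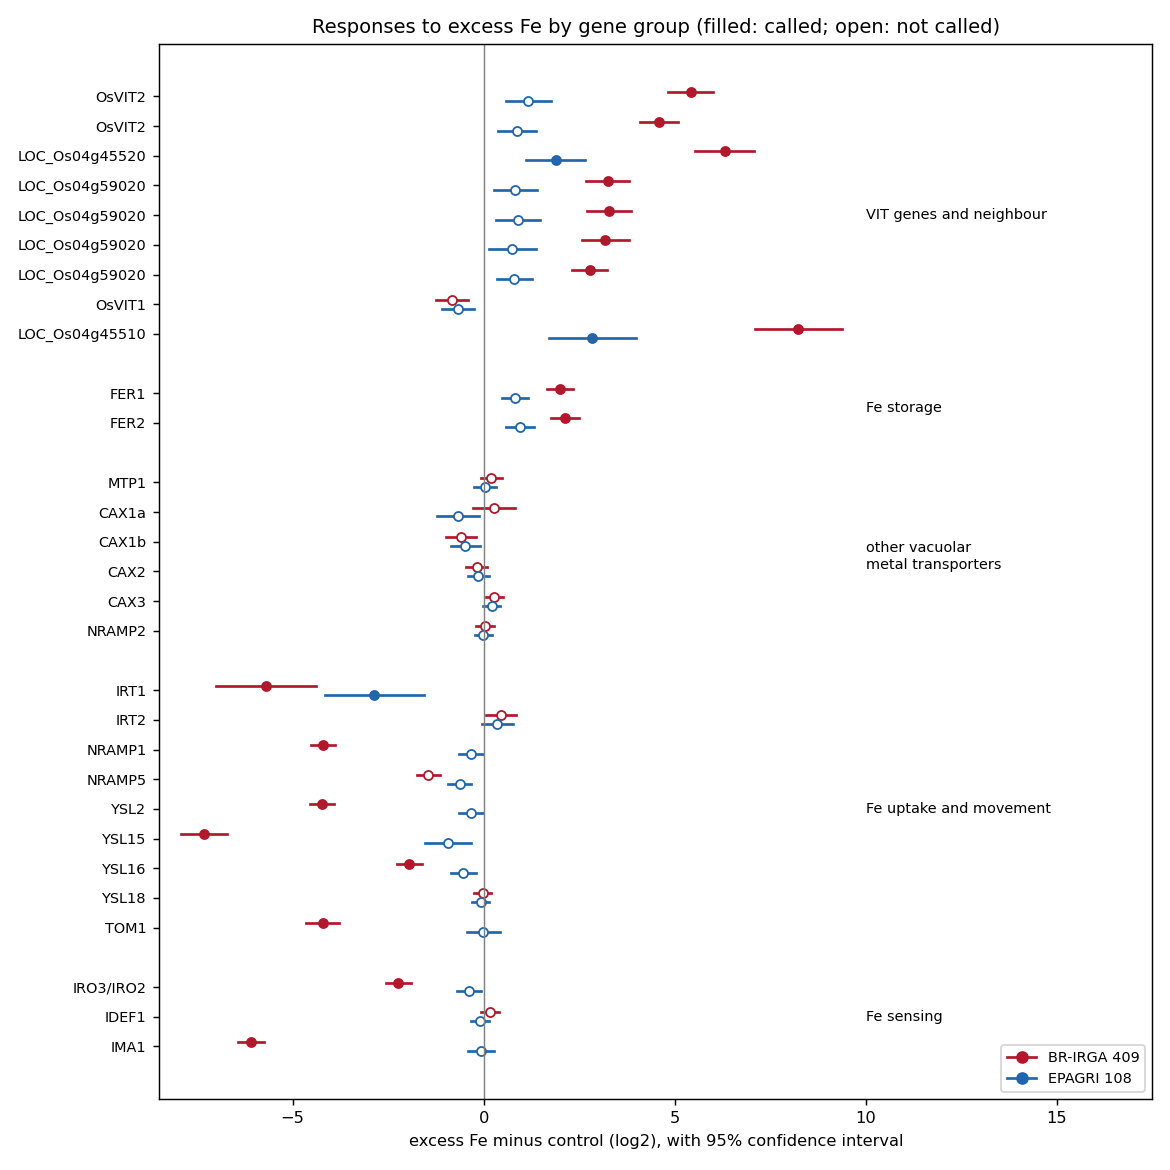
Fitted log2 differences between excess Fe and control, with 95% confidence intervals, in BR-IRGA 409 (red) and EPAGRI 108 (blue), for the 9 member probe sets and 4 groups of Fe and metal genes. Filled points were called. The 8 raised member probe sets and both ferritins lie to the right of 0, and the 6 called uptake genes and 2 called sensing genes of BR-IRGA 409 to the left. Values for LOC_Os04g45510, TOM1 and IMA1 are fitted values and not bounds.

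The members were also set against 15637 genes by the likeness of their profiles over the 12 arrays, given as Pearson's r without a test, since all points share the 4 groups and the cultivar and Fe differences between them. Among the members, r was 0.991 between LOC_Os04g45520 and LOC_Os04g45510, 0.977 between LOC_Os04g45520 and OsVIT2 on its ID-matched probe set, and 0.983 between LOC_Os04g45510 and that OsVIT2 probe set. OsVIT1 had negative values with all of them, from -0.85 to -0.73.

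The gene most like OsVIT2 was LOC_Os02g33820, listed as the abscisic acid, stress and ripening gene OsASR1 (r = 0.986), followed by LOC_Os04g45510, LOC_Os04g45520, LOC4336353 (r = 0.975) and the cytochrome P450 gene LOC_Os01g58960 (r = 0.974). OsASR1 read 13.03, 13.18 and 13.20 in BR-IRGA 409 excess Fe, against 11.03, 10.83 and 10.96 in BR-IRGA 409 control. In EPAGRI 108 it read 12.84, 13.28 and 13.19 in excess Fe, against 12.74, 12.59 and 12.69 in control. As for OsVIT2, the BR-IRGA 409 control arrays were the low ones. OsASR1 differed by 2.20 (SE 0.12, adjusted p = 1.4e-06) in BR-IRGA 409 and by 0.43 (SE 0.12, adjusted p = 0.133) in EPAGRI 108.

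The genes most like LOC_Os04g45520 were LOC_Os01g67010 and LOC_Os07g34690 (r = 0.995 each), LOC_Os04g45510, LOC_Os01g58960 (r = 0.987) and the calmodulin-like gene CML29 (r = 0.981). LOC_Os01g67010 read 12.38, 12.47 and 12.59 in BR-IRGA 409 excess Fe, against 8.44, 8.58 and 8.92 in BR-IRGA 409 control. It read 12.08, 12.49 and 12.33 in EPAGRI 108 excess Fe, against 11.87, 10.66 and 10.69 in EPAGRI 108 control, so that EPAGRI 108 control array 1 was again the highest control array. LOC_Os01g58960 (r = 0.994), LOC_Os07g34690 (r = 0.994), LOC_Os01g67010 (r = 0.992), LOC_Os04g45520 and LOC4325332 (r = 0.984) were most like LOC_Os04g45510.

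CML29 headed the genes most like LOC_Os04g59020 (r = 0.989 on its brightest probe set), followed by LOC4333647, LOC4343177, the cysteine protease inhibitor gene OC-II and LOC4335920 (r from 0.970 to 0.985). The genes most like OsVIT1 were ENR, UGE-2, a UDP-glucose epimerase, the alpha tubulin TUBA1, LOC9272062 and LOC4327233 (r from 0.973 to 0.978), none of which was among the genes most like the other members. By Spearman's rho in place of r, LOC_Os01g58960 stayed among the 5 genes most like LOC_Os04g45510, and no other gene kept its place.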

How the data were processed

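RNA from whole roots was hybridised to the GeneChip Rice Genome Array. The authors made the deposited log2 values in ArrayAssist by robust multichip analysis (RMA). Their methods add a fixed quantity of unstated size to the linear signals. The deposited minima (1.51 to 1.74 per array) lie under log2 of 16, so that 16 was not added. Array medians were 5.16 to 5.22, and the number of arrays limits the precision. P-values measure the spread between these arrays.

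Of 57381 probe sets, 123 controls were left out. The platform annotation gave 1 gene for 22436 probe sets, several for 95 and none for 34727. RefSeq (assembly ASM3414082v1) served for names and gene order.

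limma 3.58.1 under R 4.3.3 was run on the 12 arrays with 1 mean per group (lmFit, contrasts.fit, eBayes, 8 residual degrees of freedom), with Benjamini-Hochberg adjustment. "At least" marks a fold against a group wholly at or under the non-target level (the brightest of 23 control probe sets that match nothing in rice), set to it on each array. The fit was tested on simulated data. Members, lists and tests were chosen with earlier results of these data known.

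Named were all member probe sets, listed genes called in either response and, of those not called, the 2 brightest per list, called neighbours, and the 5 genes with the highest r. A listed gene was read on its brightest probe set.

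Same-numbered arrays within a cultivar deviated together (r = 0.49, 0.21 and 0.11 in BR-IRGA 409 and 0.45, 0.30 and 0.15 in EPAGRI 108). Some arrays of unlike number were as close, with r = 0.31 between excess Fe array 2 and control array 3 of BR-IRGA 409 and 0.26 in EPAGRI 108. Pairing by number is thus clear for arrays 1 only, which also deviated together across the cultivars (r = 0.27 to 0.38). The main fit used no pairing, and blocks by number were used only as alternatives. The labels call the arrays biological replicates and do not say what a number shares. Alternatives were another test, quantity added, normalization, centring, filter, samples in the fit, block, moderation and call rule, and leaving out each array.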

Additional observations from a re-analysis of the deposited data

Results flagged for a closer look

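The response to excess Fe differed between BR-IRGA 409 and EPAGRI 108 by the test of the interaction for 8 probe sets. The difference of the responses was 4.25 for the list-matched probe set of OsVIT2 and 3.72 for the ID-matched one. It was 4.42 for LOC_Os04g45520 and, as fitted, 5.39 for LOC_Os04g45510, whose BR-IRGA 409 control arrays have only a bound. The 4 probe sets of LOC_Os04g59020 had 2.42, 2.39, 2.42 and 1.98. Groups of 3 arrays are too small for a search for single arrays that stand apart.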

How the results depend on the processing

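Member probe sets called in the BR-IRGA 409 response stayed at 8 under every alternative run, except that OsVIT1 was called lower as well (1 probe set) with no fold minimum. The number with BR-IRGA 409 control as the lowest group mean stayed at 8 too. That number was rerun only with the values normalized again, centred or with 16 added, and without 1 array. The separation of BR-IRGA 409 control from the EPAGRI 108 arrays was computed once, on the deposited values. The 2 EPAGRI 108 calls (LOC_Os04g45520 and LOC_Os04g45510) fell to 0 by the methods' t-test after Benjamini-Hochberg adjustment, with 16 added to the linear values, with only the groups compared in the fit, with the replicate block within each cultivar and with trended robust moderation. Leaving out 1 array at a time gave 0 to 2, and 2 only without EPAGRI 108 excess Fe array 1 or control array 1. In the other fits without 1 array, no probe set at all was called in EPAGRI 108. The same was true of the adjusted t-test, of 16 added and of only the groups compared. With the replicate block within each cultivar, limma called none of all 57258 probe sets in EPAGRI 108, with 8213 at an unadjusted p under 0.05. Trended robust moderation differed, since 76 probe sets were still called higher and 7 lower in EPAGRI 108, with no member among them. The replicate block over all 4 groups kept 2 and changed no other call. The 8 interactions fell to 3 with 16 added, and to between 4 and 8 without 1 array, with 4 without array 2 of EPAGRI 108 excess Fe, EPAGRI 108 control or BR-IRGA 409 excess Fe, or without BR-IRGA 409 excess Fe array 3. The 8 control gaps fell to 2 by the methods' t-test after adjustment. The causes were not tested. The t-test gives no interaction. The bound of the LOC_Os04g45510 rise in BR-IRGA 409 was 243-fold with the median control probe set.

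Signs of uncalled differences turned as follows. The excess Fe gap of LOC_Os04g45520 was -0.11 without EPAGRI 108 excess Fe array 1 and without both EPAGRI 108 arrays numbered 1. That of LOC_Os04g59020 was 0.099 without EPAGRI 108 excess Fe array 3 and 0.24 against both EPAGRI 108 groups together, and that of LOC_Os04g45510 was 0.026 and 1.26 under the same changes. That of OsVIT1 was -0.053 and -0.25 under them, and -0.0012 and -0.040 without BR-IRGA 409 excess Fe array 2 and array 3. The OsVIT1 interaction was 0.065 without BR-IRGA 409 excess Fe array 1 and 0.058 without both EPAGRI 108 arrays numbered 1. Over the fits without 1 array, the excess Fe gap ran from -0.36 to 0.099 for LOC_Os04g59020, from -0.053 to 0.30 for OsVIT1 and from -0.35 to 0.026 for LOC_Os04g45510, and the OsVIT1 interaction from -0.29 to 0.065. The alternatives without both EPAGRI 108 arrays numbered 1 and against both EPAGRI 108 groups together were chosen after seeing the data.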
